A study of Homo sapiens with 12 samples.

Results

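The 9 genes described here encode proteins of the dense-core granules of neuroendocrine cells. They are the granins CHGA (chromogranin A), CHGB (chromogranin B), SCG2 (secretogranin II), SCG3 (secretogranin III) and VGF, the chaperone SCG5 (7B2), the prohormone convertases PCSK1 and PCSK2, and carboxypeptidase E (CPE). They were chosen by symbol, with earlier results of these data known, and all 9 were found among the 60554 Ensembl gene IDs that were counted. All 9 also passed the filter on low counts, which left 29003 genes for testing.

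RNA of HEK293 cells, a human line of embryonic kidney origin, was sequenced from 12 libraries after siRNA treatment. There were 3 libraries each for knockdown of RBM17, knockdown of U2SURP, knockdown of CHERP and a control siRNA. Each knockdown used a SMARTpool of siRNAs against its target, whereas the label of the control names ON-TARGET plus Non-targeting siRNA #3 and no pool (elsewhere in the record it is a scramble sequence). The cell line is given both as HEK293 and as its derivative HEK293T, all libraries are labelled with 10 passages, and no treatment time was used here. All 3 targets are proteins of the spliceosome that associate with its U2 small nuclear ribonucleoprotein. The comparisons ask how the transcripts of these granule genes differ when each protein is depleted.

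Granins are acidic, calcium-binding proteins that aggregate in the trans-Golgi network and are packed with peptide hormones into granules released on stimulation. In those granules PCSK1 and PCSK2 cut prohormones after pairs of basic residues, SCG5 keeps pro-PCSK2 in an activatable state, and CPE removes the basic residues left at the new ends. Neurons, adrenal chromaffin cells and pancreatic islet cells are the usual sites of this pathway, and in cells outside it the repressor REST is known to hold many neuronal genes silent.

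Totals ran from 252505520 to 320986785 counts per library. Each siRNA lowered its own target: RBM17 averaged 26.5 ± 0.523 CPM in RBM17 knockdown and 115 ± 2.73 CPM in control, U2SURP 144 ± 5.65 CPM in U2SURP knockdown and 471 ± 33.3 CPM in control, and CHERP 17.97 ± 0.788 CPM in CHERP knockdown and 61.3 ± 1.06 CPM in control (SD, n = 3 each). CPM are read counts brought to a common library size. Mitochondrially encoded genes took 4.64 to 5.02% of counts in RBM17 knockdown, 4.94 to 5.15% in U2SURP knockdown, 3.98 to 4.61% in CHERP knockdown and 7.88 to 8.70% in control. The library numbers of each group are consecutive, and a preparation shared within a group cannot be told apart from the group itself. Of 10 genes of embryonic kidney, 8 were at 0.1 CPM or more on average in control, with SALL1 at 75.5 CPM, while PAX8 was at 0.0436 CPM.

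Per exonic length, CPE stood far above the other 8 genes in every group. It averaged 30.2 CPM per kb in RBM17 knockdown, 25.5 CPM per kb in U2SURP knockdown, 21.97 CPM per kb in CHERP knockdown and 30.9 CPM per kb in control. In control 93.8% of the 16291 protein-coding genes that passed the filter on low counts were lower. In control the order below CPE was SCG5 (0.707 CPM per kb), VGF (0.281), CHGA (0.184), SCG3 (0.145), PCSK2 (0.135), SCG2 (0.0653), CHGB (0.0650) and PCSK1 (0.0117). The libraries of SCG3 overlapped there with those of CHGA and PCSK2, and those of SCG2 with those of CHGB, so these neighbours did not differ beyond their spread. In RBM17 knockdown the order was CPE, CHGA (2.01 CPM per kb), SCG3 (1.16) and CHGB (0.604), then VGF (0.248), SCG5 (0.214), PCSK2 (0.167), SCG2 (0.0988) and PCSK1 (0.0255), and SCG5 overlapped with both VGF and PCSK2. In U2SURP knockdown SCG3 (0.283), SCG5 (0.249), CHGA (0.196) and VGF (0.154) came next to CPE, each overlapping with the next, followed by PCSK2 (0.0722), CHGB (0.0648) and SCG2 (0.0544), which overlapped likewise, and PCSK1 (0.0146). In CHERP knockdown SCG5 (0.244) stood alone below CPE, then came CHGA (0.0956), SCG3 (0.0786) and VGF (0.0762), then SCG2 (0.0417), PCSK2 (0.0377) and CHGB (0.0363), with overlap within each trio of neighbours, and PCSK1 (0.0126). Even in RBM17 knockdown CHGA was above only 40.0% of these tested protein-coding genes, so its transcript stayed in the lower part of their range. Protein-coding genes that failed the filter were not ranked. CPE made up 83.6 to 87.5% of the summed CPM of the 9 genes in RBM17 knockdown, 94.9 to 96.2% in U2SURP knockdown, 96.7 to 97.4% in CHERP knockdown and 94.7 to 95.3% in control. The other 8 genes together summed to 13.4 to 16.9 CPM in RBM17 knockdown, 3.28 to 3.99 CPM in U2SURP knockdown, 1.74 to 2.11 CPM in CHERP knockdown and 4.63 to 4.98 CPM in control.

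**Figure D1:**
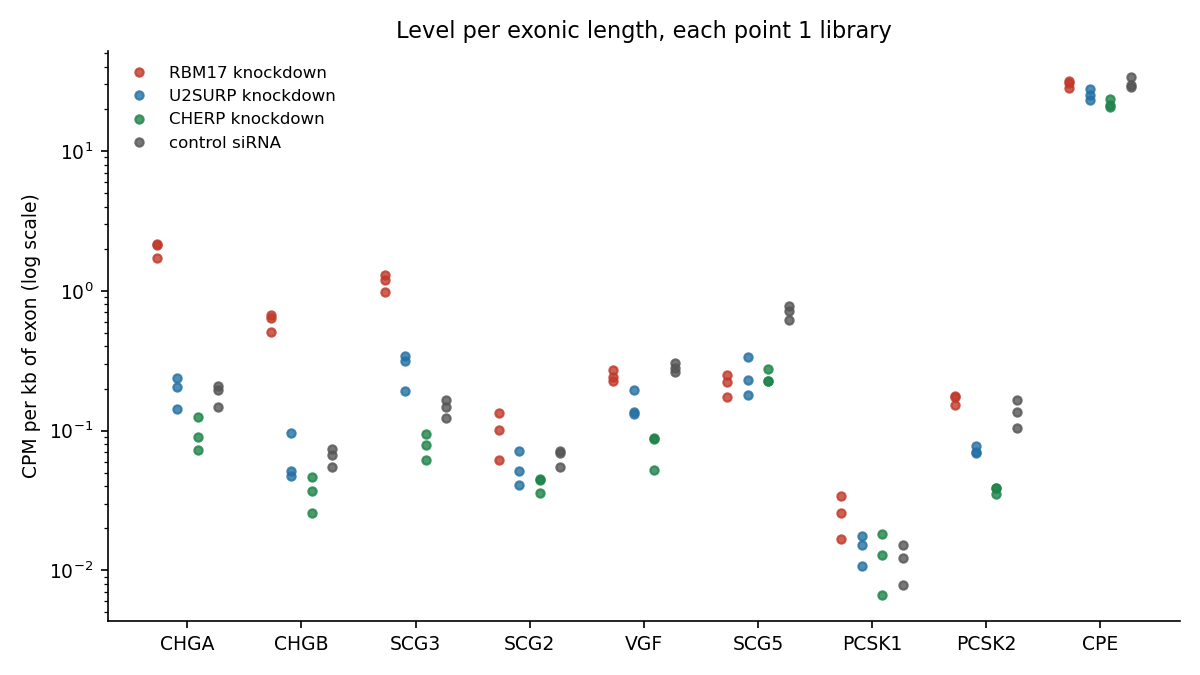
Level of each gene in CPM per kb of exon (log axis), each point 1 library, with the groups from left to right RBM17 knockdown, U2SURP knockdown, CHERP knockdown and control siRNA. CPE lies above 20 CPM per kb in all 12 libraries, and CHGA, CHGB and SCG3 stand above the other groups in RBM17 knockdown.

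The 3 granins CHGA, CHGB and SCG3 were 8.0 to 10.9 times as abundant in RBM17 knockdown as in control, and all 3 were lower than control in CHERP knockdown. In U2SURP knockdown SCG3 alone of them rose. Fewer cells that make a transcript and less of it per cell cannot be told apart in these bulk libraries.

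CHGA (ENSG00000100604.12, chr14:92923080-92935293, plus strand, 7 or 8 exons) encodes the granin from which vasostatin, pancreastatin and catestatin are cut. Its level was 5.33, 6.76 and 6.61 CPM in RBM17 knockdown, 0.445, 0.737 and 0.638 CPM in U2SURP knockdown, 0.227, 0.385 and 0.277 CPM in CHERP knockdown, and 0.651, 0.455 and 0.601 CPM in control. The 3 libraries of RBM17 knockdown stood apart from all others, those of CHERP knockdown lay below every control, and those of U2SURP knockdown overlapped with control. CHGA rose 10.9-fold in RBM17 knockdown (log2 3.45 ± 0.18, SE, adjusted p = 6.36e-12, edgeR), and it ranked 12 from the top of 16291 tested protein-coding genes by log2 fold change. It fell by 0.94 on the log2 scale in CHERP knockdown (SE 0.20, adjusted p = 0.000631), and its log2 fold change in U2SURP knockdown was 0.10 ± 0.19 (adjusted p = 0.72). Counts of 1621 to 1842 per library in RBM17 knockdown, against 131 to 195 in control, lie behind the first of these values.

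CHGB (ENSG00000089199.9, chr20:5911430-5925361, plus strand, 5 exons) encodes the second large chromogranin, a granule matrix protein. Its level was 2.31, 3.03 and 2.89 CPM in RBM17 knockdown, 0.231, 0.434 and 0.216 CPM in U2SURP knockdown, 0.167, 0.211 and 0.116 CPM in CHERP knockdown, and 0.304, 0.247 and 0.333 CPM in control. RBM17 knockdown stood clear of the rest, no CHERP knockdown library reached the lowest control, and the U2SURP knockdown libraries lay on both sides of the controls. CHGB rose 9.31-fold in RBM17 knockdown (log2 3.22 ± 0.22, adjusted p = 7.31e-11, rank 13) and fell 1.79-fold in CHERP knockdown (log2 -0.84 ± 0.25, adjusted p = 0.00904). In U2SURP knockdown the log2 fold change was 0.011 ± 0.24 (adjusted p = 0.977), and it was -0.39 without U2SURP knockdown library 2 (adjusted p = 0.189).

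SCG3 (ENSG00000104112.8, chr15:51681353-51721031, plus strand, 11 or 12 exons) encodes a granin that binds cholesterol and tethers CHGA aggregates to the granule membrane. Its level was 3.25, 4.29 and 3.98 CPM in RBM17 knockdown, 0.641, 1.12 and 1.05 CPM in U2SURP knockdown, 0.206, 0.315 and 0.261 CPM in CHERP knockdown, and 0.408, 0.487 and 0.548 CPM in control. The 4 groups did not overlap with each other. SCG3 rose 8.0-fold in RBM17 knockdown (log2 3.00 ± 0.19, adjusted p = 1.43e-11, rank 15) and 1.96-fold in U2SURP knockdown (log2 0.97 ± 0.19, adjusted p = 0.000192), where it ranked 342. It fell 1.83-fold in CHERP knockdown (log2 -0.87 ± 0.21, adjusted p = 0.00124). These comparisons share the 3 control libraries.

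Windows of 250 bases before to 50 after the start site were taken from RefSeq (GRCh38.p14) for 6 of the 9 genes; those of CHGA, CHGB and SCG2 were not analysed here. That of SCG3 (chr15:51681253-51681552, plus strand) is shown because the gene rose in RBM17 knockdown; capitals mark a cAMP response element (CRE, TGACGTCA) and the exact left and right parts of the REST element RE1 (TTCAGCACC, GGACAGCGC), searched on both strands.
SCG3: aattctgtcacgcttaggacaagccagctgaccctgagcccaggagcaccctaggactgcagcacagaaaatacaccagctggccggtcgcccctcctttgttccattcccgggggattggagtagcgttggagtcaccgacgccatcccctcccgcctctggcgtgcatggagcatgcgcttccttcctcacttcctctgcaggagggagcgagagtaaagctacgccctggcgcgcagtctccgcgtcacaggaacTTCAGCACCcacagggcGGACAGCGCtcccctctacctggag
The motifs were chosen after the windows had been read. SCG3 holds both RE1 parts in order and on 1 strand, the left at 8 to 16 and the right at 25 to 33 from the start site, counted as base 0, and no CRE. The letters of the CRE occur in 649 of 35116 promoter windows (1.85%). The left part occurs in 132 windows (0.376%) and the right part in 204 (0.581%). How many of all windows hold both parts was not counted. The spacing of the parts in SCG3 was not compared with that of a known RE1. The shorter CRE core TGACG, which is contained in the CRE on either strand, occurs in 24.6% of windows. SCG3 holds this core on the opposite strand at -4 to 0. A match describes letters only, and binding was not measured.

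**Figure D2:**
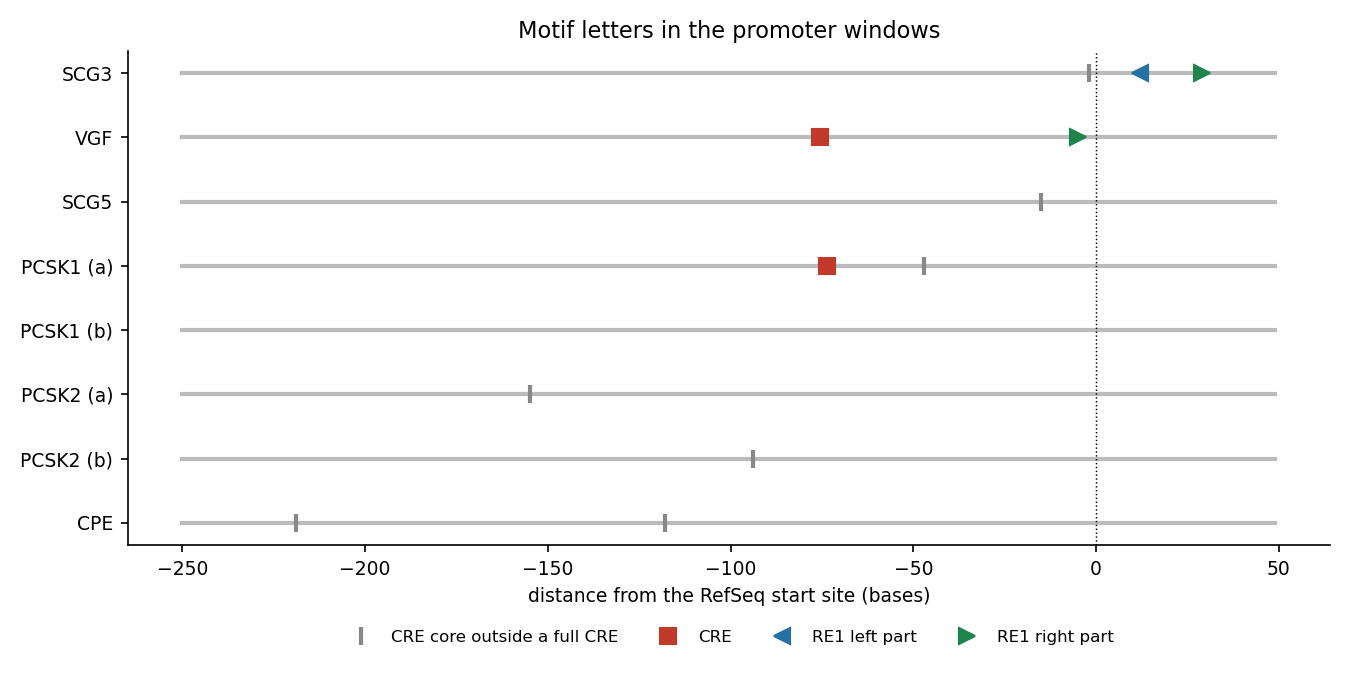
Position of motif letters in 8 promoter windows of 6 genes, in bases from the RefSeq start site (dotted line); PCSK1 and PCSK2 have 2 windows each, marked a and b. A full CRE occurs in VGF and 1 window of PCSK1, and both RE1 parts occur together in SCG3.

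**Figure D3:**
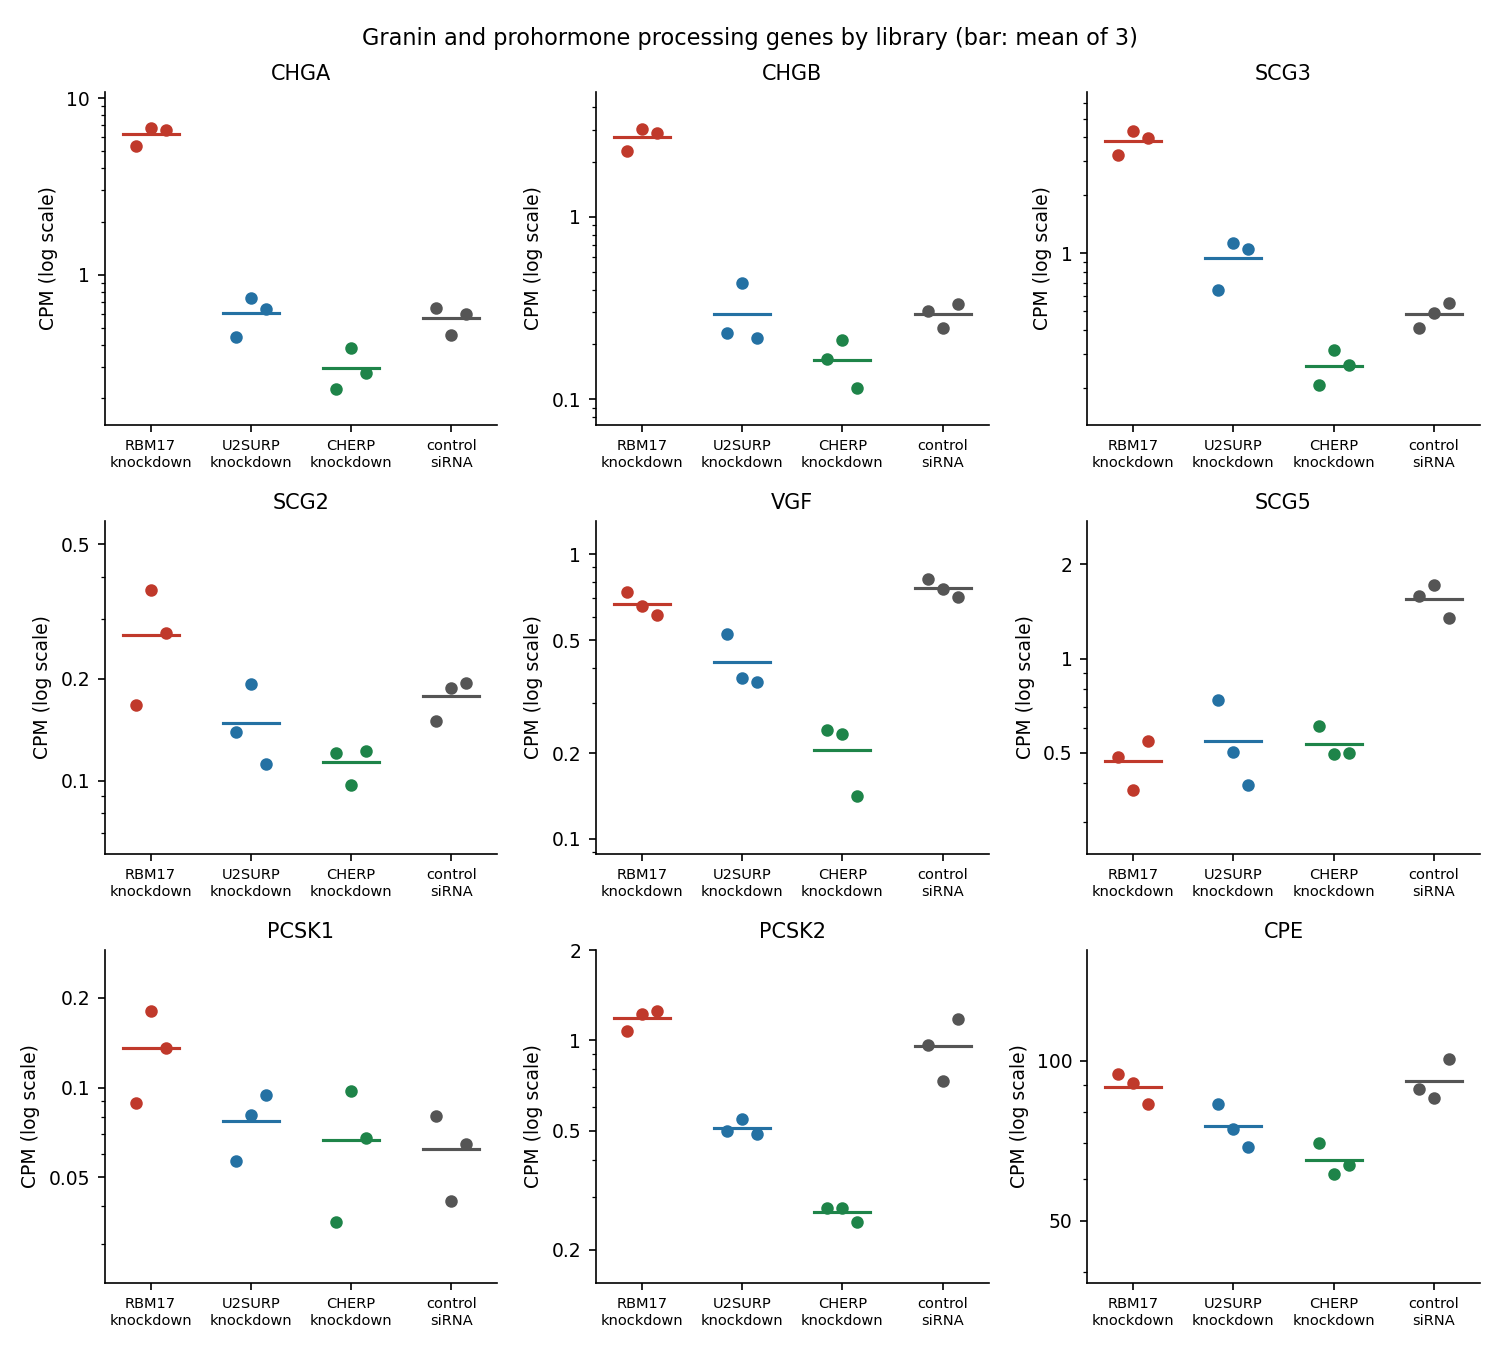
CPM of each gene by library (log axes that differ between panels), 3 points per group and a bar at their mean, with RBM17, U2SURP and CHERP knockdown left of control siRNA. CHGA, CHGB and SCG3 are high in RBM17 knockdown, SCG5 is low in all 3 knockdowns, and VGF and PCSK2 step down through U2SURP to CHERP knockdown.

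VGF and SCG2 were not called higher in RBM17 knockdown than in control. VGF was lower in U2SURP and CHERP knockdown than in control. SCG2, which had few reads, passed no test against control. It was higher in RBM17 than in CHERP knockdown (log2 1.23, adjusted p = 0.00158, edgeR).

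VGF (ENSG00000128564.6, chr7:101162509-101165593, minus strand, 2 to 4 exons) encodes a growth-factor-inducible granin that yields several bioactive peptides. Its level was 0.736, 0.658 and 0.614 CPM in RBM17 knockdown, 0.527, 0.368 and 0.356 CPM in U2SURP knockdown, 0.241, 0.235 and 0.142 CPM in CHERP knockdown, and 0.819, 0.754 and 0.710 CPM in control. RBM17 knockdown overlapped with control, and the U2SURP and CHERP knockdown libraries lay below both without overlap. VGF fell 3.70-fold in CHERP knockdown (log2 -1.89 ± 0.21, adjusted p = 6.26e-08) and 1.83-fold in U2SURP knockdown (log2 -0.87 ± 0.19, adjusted p = 0.000748). In RBM17 knockdown the log2 fold change was -0.19 ± 0.19 (adjusted p = 0.427). Its promoter window (chr7:101165520-101165819, minus strand) is shown because it holds a CRE.
VGF: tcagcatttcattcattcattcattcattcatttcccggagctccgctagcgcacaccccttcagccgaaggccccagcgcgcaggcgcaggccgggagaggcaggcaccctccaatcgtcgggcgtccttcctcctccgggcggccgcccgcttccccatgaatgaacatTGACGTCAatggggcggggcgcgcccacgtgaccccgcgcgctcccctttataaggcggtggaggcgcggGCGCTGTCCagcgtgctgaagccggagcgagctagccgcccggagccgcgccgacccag
The CRE of VGF lies at -79 to -72, and the right RE1 part lies on the opposite strand at -9 to -1. No left part was found in this window.

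SCG2 (ENSG00000171951.4, chr2:223596940-223602503, minus strand, 2 exons) is the precursor of secretoneurin. Its level was 0.168, 0.366 and 0.273 CPM in RBM17 knockdown, 0.139, 0.194 and 0.112 CPM in U2SURP knockdown, 0.121, 0.0972 and 0.123 CPM in CHERP knockdown, and 0.150, 0.188 and 0.195 CPM in control. Only 29 to 95 reads per library were counted. The first RBM17 knockdown library lay within the range of control and the other 2 above it, and all 3 CHERP knockdown libraries lay below control. Log2 fold changes against control were 0.59 ± 0.30 in RBM17 knockdown (adjusted p = 0.0957), -0.25 ± 0.31 in U2SURP knockdown (adjusted p = 0.544) and -0.64 ± 0.31 in CHERP knockdown (adjusted p = 0.0975). Without RBM17 knockdown library 1 the first of these was 0.85 and passed (adjusted p = 0.0201).

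SCG5 was the member that fell in all 3 knockdowns. SCG5 (ENSG00000166922.8, chr15:32641676-32697098, plus strand, 5 or 6 exons) encodes 7B2, the chaperone and inhibitor of PCSK2. Its level was 0.486, 0.381 and 0.545 CPM in RBM17 knockdown, 0.741, 0.503 and 0.394 CPM in U2SURP knockdown, 0.610, 0.496 and 0.50 CPM in CHERP knockdown, and 1.58, 1.72 and 1.35 CPM in control. All 9 knockdown libraries lay below the 3 controls, which every comparison shares, and the 3 knockdowns overlapped with each other. It fell 3.29-fold in RBM17 knockdown (log2 -1.72 ± 0.19, adjusted p = 5.05e-08), 2.85-fold in U2SURP knockdown (log2 -1.51 ± 0.19, adjusted p = 6.74e-07) and 2.90-fold in CHERP knockdown (log2 -1.54 ± 0.19, adjusted p = 3.49e-07). Between knockdowns the log2 fold changes of SCG5 were -0.21 ± 0.20, -0.18 ± 0.20 and 0.027 ± 0.19 (RBM17 over U2SURP, RBM17 over CHERP, U2SURP over CHERP; adjusted p = 0.415, 0.463 and 0.941). SCG5 shares 11 exonic bases (0.501% of its exons) with the antisense gene AC123768.1, which averaged 0.116 CPM. Its promoter window (chr15:32641460-32641759, plus strand) is shown as that of the member with the opposite change to SCG3 in RBM17 knockdown, and it holds no full CRE and neither RE1 part.
SCG5: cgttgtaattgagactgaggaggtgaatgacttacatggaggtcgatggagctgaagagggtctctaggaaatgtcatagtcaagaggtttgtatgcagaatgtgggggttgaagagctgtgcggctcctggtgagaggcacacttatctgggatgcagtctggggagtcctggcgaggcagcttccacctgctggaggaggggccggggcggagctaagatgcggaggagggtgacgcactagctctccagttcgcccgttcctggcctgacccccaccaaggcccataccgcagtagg
The only motif letters in it are 1 CRE core, at -17 to -13.

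**Figure D4:**
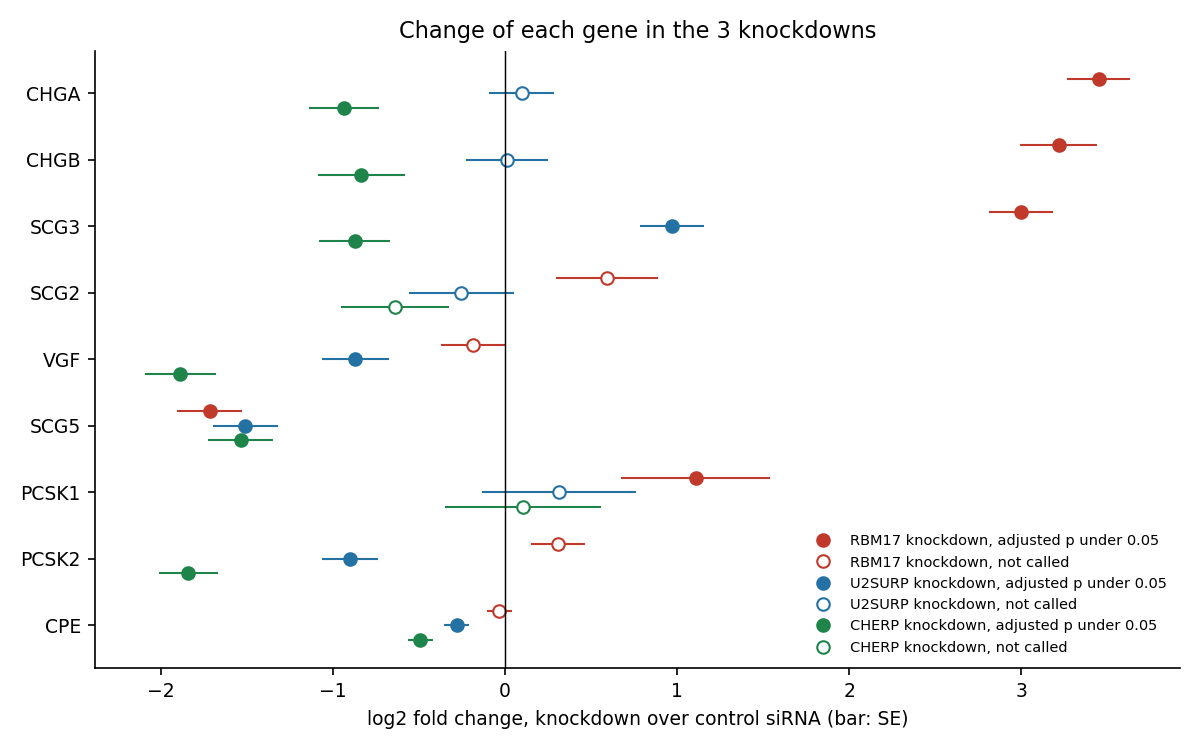
Log2 fold change of each gene in RBM17, U2SURP and CHERP knockdown over control siRNA, with SE bars; filled points have an adjusted p under 0.05. CHGA, CHGB and SCG3 lie at 3.00 to 3.45 in RBM17 knockdown and below 0 in CHERP knockdown, and SCG5 lies between -1.72 and -1.51 in all 3.

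The convertase PCSK2 was lower in U2SURP and CHERP knockdown, and PCSK1 had few reads in any library. PCSK2 (ENSG00000125851.9, chr20:17226107-17484578, plus strand, 11 to 13 exons) completes the cutting of many prohormones, proglucagon and proinsulin among them. Its level was 1.07, 1.23 and 1.25 CPM in RBM17 knockdown, 0.499, 0.546 and 0.488 CPM in U2SURP knockdown, 0.277, 0.275 and 0.248 CPM in CHERP knockdown, and 0.962, 0.734 and 1.18 CPM in control. The U2SURP and CHERP knockdown libraries lay below all controls and apart from each other, and RBM17 knockdown overlapped with control. PCSK2 fell 3.58-fold in CHERP knockdown (log2 -1.84 ± 0.17, adjusted p = 5.91e-09) and 1.87-fold in U2SURP knockdown (log2 -0.90 ± 0.16, adjusted p = 8.31e-05). In RBM17 knockdown the log2 fold change was 0.31 ± 0.16 (adjusted p = 0.101), and without control library 3 it was 0.48 and passed (adjusted p = 0.0169).

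PCSK1 (ENSG00000175426.10, chr5:96390415-96434143, minus strand, 14 exons) makes the first cuts in proopiomelanocortin and proinsulin. Counts were 27, 47 and 38 in RBM17 knockdown, 16, 26 and 27 in U2SURP knockdown, 10, 29 and 21 in CHERP knockdown, and 24, 12 and 16 in control. These are 0.0887, 0.181 and 0.136 CPM in RBM17 knockdown, against 0.0802, 0.0417 and 0.0649 CPM in control, and the lowest RBM17 knockdown library lay just above the highest control. The log2 fold change in RBM17 knockdown was 1.11 ± 0.43 (adjusted p = 0.0343). That call was lost without RBM17 knockdown library 2 (0.85, adjusted p = 0.159) or 3 (adjusted p = 0.0651), and without control library 2 (0.88, adjusted p = 0.134) or 3 (adjusted p = 0.0606). The log2 fold changes of 0.31 ± 0.45 in U2SURP knockdown (adjusted p = 0.614) and 0.10 ± 0.45 in CHERP knockdown (adjusted p = 0.875) did not pass.

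CPE (ENSG00000109472.13, chr4:165361194-165498320, plus strand, 9 exons), the trimming enzyme, was measured with 18251 to 28715 reads per library. Its level was 94.4, 90.7 and 83.0 CPM in RBM17 knockdown, 82.7, 74.5 and 68.7 CPM in U2SURP knockdown, 70.1, 61.2 and 63.7 CPM in CHERP knockdown, and 88.5, 85.2 and 101 CPM in control. U2SURP and CHERP knockdown lay below every control library, and RBM17 knockdown overlapped with control. CPE fell by 0.49 on the log2 scale in CHERP knockdown (SE 0.072, adjusted p = 5.55e-06) and by 0.28 in U2SURP knockdown (SE 0.072, adjusted p = 0.00277). In RBM17 knockdown the value was -0.035 ± 0.072 (adjusted p = 0.707), and its sign changed with the scaling.

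Counted over the 9 genes, RBM17 knockdown gave 4 calls higher (CHGA, CHGB, SCG3 and PCSK1) and 1 lower (SCG5), where 25.4% of all tested genes were called higher and 29.3% lower. U2SURP knockdown gave 1 higher (SCG3) and 4 lower (SCG5, PCSK2, VGF and CPE), where 21.1% of all tested genes were higher and 22.2% lower. CHERP knockdown gave 7 lower, with SCG2 and PCSK1 the exceptions, and 0 higher, where 24.6% of all tested genes were lower and 22.8% higher. The median log2 fold change of the 9 genes was 0.59 in RBM17 knockdown, -0.25 in U2SURP knockdown and -0.87 in CHERP knockdown, against -0.10, -0.025 and -0.0035 over all tested genes in the same order.

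Set directly against each other, CHGA, CHGB, SCG3, VGF, PCSK2 and CPE were each called higher in RBM17 than in U2SURP knockdown and higher in U2SURP than in CHERP knockdown. The libraries of CPE still overlapped in the second of these pairs, with U2SURP knockdown library 3 at 68.7 CPM and CHERP knockdown library 1 at 70.1 CPM. The pairs share the U2SURP knockdown libraries, and how many of all tested genes were called higher in both was not counted. RBM17 knockdown against U2SURP knockdown gave 7 genes higher and 0 lower, where 23% of all tested genes were higher and 21.5% lower. RBM17 knockdown against CHERP knockdown also gave 7 higher and 0 lower, where 26.1% of all tested genes were higher and 25.5% lower. In both, SCG5 and PCSK1 were the genes without a call. U2SURP knockdown against CHERP knockdown gave 6 higher (CHGA, CHGB, SCG3, VGF, PCSK2 and CPE) and 0 lower, where 15% of all tested genes were higher and 12.9% lower. For the 4 counts of 0 among the 9 genes, edgeR at an unadjusted p under 0.05 and the DESeq2 Wald test also gave 0.

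CHGA was 20.9-fold higher in RBM17 knockdown than in CHERP knockdown (log2 4.39 ± 0.20, adjusted p = 2.37e-13), CHGB 16.6-fold (log2 4.05 ± 0.24, adjusted p = 3.90e-12) and SCG3 14.7-fold (log2 3.87 ± 0.20, adjusted p = 3.70e-13). PCSK2 was 4.44-fold higher (log2 2.15 ± 0.17, adjusted p = 2.89e-10), VGF 3.26-fold (log2 1.70 ± 0.21, adjusted p = 2.38e-07) and SCG2 2.35-fold (log2 1.23 ± 0.31, adjusted p = 0.00158). For PCSK1 the log2 fold change was 1.00 ± 0.43 (adjusted p = 0.0538), and it passed in 5 of 16 alternatives: under DESeq2 size factors (adjusted p = 0.0467), in the DESeq2 Wald test (adjusted p = 0.0428), and without RBM17 knockdown library 1 (1.24, adjusted p = 0.0277), U2SURP knockdown library 1 (adjusted p = 0.0433) or CHERP knockdown library 2 (1.37, adjusted p = 0.0273). Between U2SURP and CHERP knockdown, SCG3 was 3.59-fold higher (log2 1.85 ± 0.20, adjusted p = 2.88e-07), CHGA 2.05-fold (adjusted p = 0.000509), VGF 2.03-fold (adjusted p = 0.000684) and PCSK2 1.92-fold (adjusted p = 0.000256). CHGB (log2 0.85 ± 0.25, adjusted p = 0.0140) lost its call in the fit of these groups alone (adjusted p = 0.0502), without U2SURP knockdown library 2 (0.44, adjusted p = 0.194) and without CHERP knockdown library 3 (adjusted p = 0.0761). CPE in this pair (log2 0.21 ± 0.072, adjusted p = 0.0304) lost it without U2SURP knockdown library 1 or 2 or CHERP knockdown library 2 or 3 (adjusted p = 0.134, 0.0650, 0.151 and 0.0609). Of RBM17 over U2SURP knockdown, the call of SCG2 (log2 0.85 ± 0.30, adjusted p = 0.0240), whose libraries overlapped, was lost without RBM17 knockdown library 2 (0.56, adjusted p = 0.185) or 3 and without U2SURP knockdown library 1 or 3. The call of CPE in that pair (log2 0.25 ± 0.072, adjusted p = 0.00735) was lost without U2SURP knockdown library 3 (adjusted p = 0.0604).

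Other enzymes of peptide processing were more often called lower than higher. Of 12 tested genes for other convertases, their inhibitor, and trimming or amidating enzymes, 9 (75.0%) were lower in each knockdown, where 29.3, 22.2 and 24.6% of all tested genes were lower in RBM17, U2SURP and CHERP knockdown, and 1, 0 and 1 higher in RBM17, U2SURP and CHERP knockdown; the 0 was also 0 at an unadjusted p under 0.05 and in DESeq2. With DESeq2 size factors, the DESeq2 test or a fit of the compared groups, 5 in place of 9 were lower in RBM17 knockdown. PAM, which amidates peptide ends, averaged 85.8 ± 4.2 CPM in RBM17 knockdown, 63.9 ± 3.5 CPM in U2SURP knockdown, 61.1 ± 2.6 CPM in CHERP knockdown and 135 ± 8.5 CPM in control, a fall of 0.65, 1.08 and 1.14 on the log2 scale (adjusted p = 1.04e-09, 2.30e-12 and 2.05e-13). PCSK1N, the gene of the PCSK1 inhibitor proSAAS, rose by 0.42 in RBM17 knockdown (adjusted p = 0.0449). That call was lost without RBM17 knockdown library 1 or 2, U2SURP knockdown library 2, or control library 2 or 3 (adjusted p = 0.0659 to 0.135). In CHERP knockdown PCSK1N fell by 0.96 (adjusted p = 0.000362), at 3.82 ± 1.0 CPM, against 7.40 ± 0.72 CPM in control. Also in CHERP knockdown, CPD, a Golgi carboxypeptidase related to CPE, fell by 0.80 (adjusted p = 6.04e-11) and QPCTL, a glutaminyl cyclase, fell by 0.89 (adjusted p = 3.73e-11); CPD and the CHERP value of PCSK1N were picked after their values were seen. PCSK4 rose by 0.27 there (adjusted p = 0.0471) and lost that call with no filter, in the fit of the compared groups and without any 1 of 7 libraries, among them CHERP knockdown library 2 (0.17, adjusted p = 0.290) and control library 2 (0.23, adjusted p = 0.155). In RBM17 knockdown MBTPS1, the site-1 protease, fell by 0.37 (adjusted p = 7.93e-06), and in U2SURP knockdown PCSK5 fell by 0.52 (adjusted p = 2.65e-08).

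Of 39 genes of peptide precursors, the substrates of this pathway, 20 were too low to test. Of the 19 others, 5 were higher and 3 lower in RBM17 knockdown, 2 higher and 5 lower in U2SURP knockdown, and 2 higher and 8 lower in CHERP knockdown. As shares of the 19 these are 26.3% higher and 15.8% lower in RBM17 knockdown (25.4 and 29.3% of all tested genes), 10.5 and 26.3% in U2SURP knockdown (21.1 and 22.2%), and 10.5 and 42.1% in CHERP knockdown (22.8 and 24.6%). The share higher in RBM17 knockdown and the share lower in U2SURP knockdown were thus near those of all genes. In RBM17 knockdown GAL (galanin) rose by 0.75, at 41.5 ± 5.5 CPM against 24.6 ± 1.8 CPM in control (adjusted p = 7.55e-09), and ADM (adrenomedullin) by 0.62 (adjusted p = 3.32e-05). CORT (cortistatin) fell by 1.21 (adjusted p = 5.27e-08) and TAC3 (neurokinin B) fell by 1.62 (adjusted p = 3.04e-05) in the same libraries. PYY rose by 1.14 in U2SURP knockdown and by 1.24 in CHERP knockdown (adjusted p = 0.000638 and 0.000230), with levels of 0.316 ± 0.053 and 0.338 ± 0.088 CPM, against 0.143 ± 0.0061 CPM in control. In U2SURP knockdown NMB (neuromedin B) rose by 0.25 (adjusted p = 0.00977), POMC fell by 1.12 (adjusted p = 0.000107) and NMU fell by 0.31 (adjusted p = 0.00149). In CHERP knockdown PTHLH rose by 0.60 (adjusted p = 0.00795), CALCB fell by 0.51 (adjusted p = 7.79e-06) and NPPC fell by 0.63 (adjusted p = 4.31e-05). In U2SURP knockdown the 5 lower became 3 without U2SURP knockdown library 2 or control library 3, and the call of NMB was lost without U2SURP knockdown library 1 (adjusted p = 0.0675). The call of PTHLH was lost without CHERP knockdown library 3 or control library 1 (adjusted p = 0.0504 and 0.0523).

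Of 31 tested genes of the machinery of granule formation and release, 16 were higher and 6 lower in RBM17 knockdown, 9 higher and 8 lower in U2SURP knockdown, and 6 higher and 12 lower in CHERP knockdown. The shares were 51.6% higher and 19.4% lower in RBM17 knockdown, against 25.4 and 29.3% of all tested genes, and 19.4% higher and 38.7% lower in CHERP knockdown, against 22.8 and 24.6%. In U2SURP knockdown they were 29.03 and 25.8%, near the 21.1 and 22.2% of all tested genes. SNAP25, the SNARE of regulated exocytosis, named here after its values were seen, averaged 2.56 ± 0.27 CPM in RBM17 knockdown and 0.351 ± 0.084 CPM in control (log2 2.87 ± 0.28, adjusted p = 1.74e-07). In CHERP knockdown it averaged 0.203 ± 0.13 CPM (log2 -0.77 ± 0.31, adjusted p = 0.0478), a call lost in 12 of 16 alternatives, among them leaving out CHERP knockdown library 1 (-0.49, adjusted p = 0.147) or control library 2 (-0.57, adjusted p = 0.195). SYT7, a calcium sensor of exocytosis, rose by 0.88 in RBM17 knockdown (adjusted p = 1.54e-10) and fell by 0.45 in CHERP knockdown (adjusted p = 8.10e-06). UNC13A, a priming factor, rose by 0.92 in RBM17 knockdown (adjusted p = 1.31e-08) and fell by 0.54 in CHERP knockdown (adjusted p = 4.69e-05); the CHERP values of SYT7 and both of UNC13A were also chosen after being seen. VTI1A rose by 0.55 in RBM17 knockdown, while VAMP2 fell by 0.49 and SYTL4 fell by 0.38 (adjusted p = 4.91e-09, 3.77e-08 and 8.03e-06). ICA1 rose by 0.44 in U2SURP knockdown (adjusted p = 2.50e-05) and RAB2A by 0.43 in CHERP knockdown (adjusted p = 2.06e-05). CYB561, the granule cytochrome, fell by 0.38 in U2SURP and by 0.95 in CHERP knockdown (adjusted p = 8.60e-05 and 8.69e-11). SV2A fell by 0.65 in U2SURP knockdown (adjusted p = 7.41e-06), and BAIAP3, a factor of granule maturation, fell by 1.56 in CHERP knockdown (adjusted p = 2.57e-12).

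**Figure D5:**
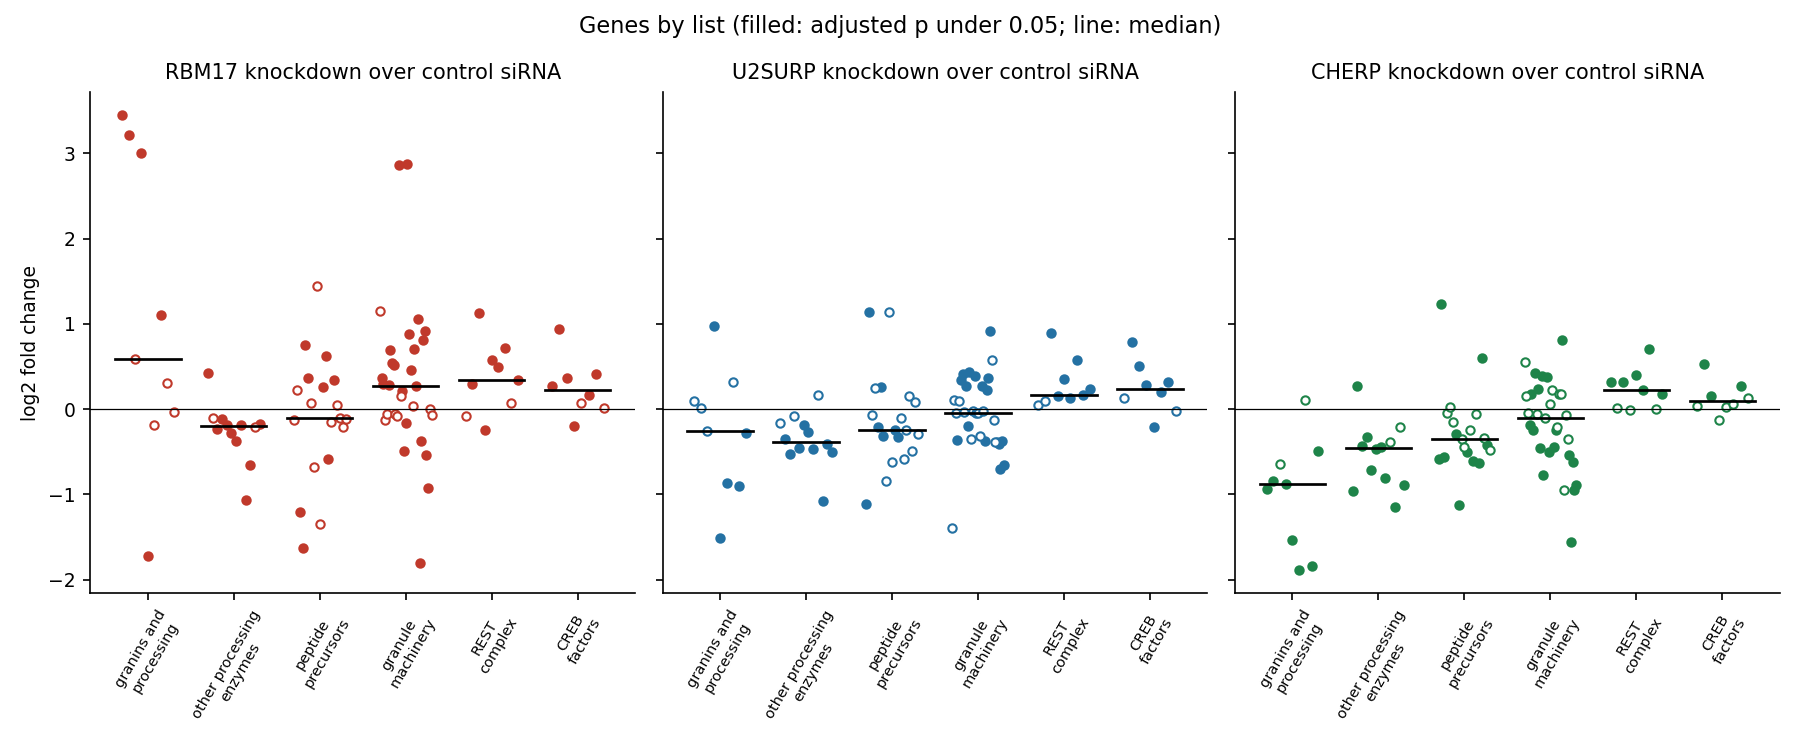
Log2 fold change over control siRNA of the tested genes of 6 lists in RBM17, U2SURP and CHERP knockdown, each point 1 gene, filled where the adjusted p is under 0.05, with a line at the median of the list. The other processing enzymes have medians of -0.20, -0.38 and -0.46, and the granule machinery of 0.27, -0.05 and -0.10.

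REST itself was not called in RBM17 knockdown (log2 -0.08, adjusted p = 0.259) or in U2SURP knockdown (log2 0.05, adjusted p = 0.556), and rose by 0.32 in CHERP knockdown, at 72.9 ± 2.2 CPM against 58.4 ± 2.4 CPM in control (adjusted p = 5.22e-05); this value was picked after it was seen. A list of 10 genes held REST, its corepressors and SRRM4. Of the 9 tested, 6 were higher and 1 lower in RBM17 knockdown, 7 higher and 0 lower in U2SURP knockdown, and 6 higher and 0 lower in CHERP knockdown. The higher ones are 66.7, 77.8 and 66.7% of those tested, where 25.4, 21.1 and 22.8% of all tested genes were higher in RBM17, U2SURP and CHERP knockdown. In the same order 29.3, 22.2 and 24.6% of all tested genes were lower. RCOR2 rose by 1.13 in RBM17 and by 0.89 in U2SURP knockdown (adjusted p = 6.15e-12 and 8.37e-10). HDAC2 rose by 0.72, 0.58 and 0.70 in RBM17, U2SURP and CHERP knockdown (adjusted p = 7.10e-10, 6.50e-08 and 1.74e-09), KDM1A by 0.41 in CHERP knockdown (adjusted p = 1.39e-06), and RCOR3 fell by 0.24 in RBM17 knockdown (adjusted p = 0.000352). Of 8 CREB-family factors and coactivators, 5 were higher and 1 lower in RBM17 knockdown, 5 higher and 1 lower in U2SURP knockdown, and 3 higher and 0 lower in CHERP knockdown. Set against the same shares of all tested genes, 62.5, 62.5 and 37.5% of this list were higher, and the last of these rests on 3 genes. CREM rose by 0.94, 0.79 and 0.52 in RBM17, U2SURP and CHERP knockdown (adjusted p = 9.89e-11, 5.28e-09 and 1.20e-06). CREBBP rose by 0.41 in RBM17 and by 0.27 in CHERP knockdown, and ATF1 by 0.50 in U2SURP knockdown (adjusted p = 9.93e-07, 0.000268 and 6.88e-08). CRTC2 fell by 0.21 in U2SURP knockdown (adjusted p = 0.00249), and CRTC1 fell by 0.20 in RBM17 knockdown (adjusted p = 0.0112), a call lost under DESeq2, in the fit of the compared groups and without RBM17 knockdown library 2 or control library 1 (adjusted p = 0.0608 to 0.0812). The 3 counts of 0 in these lists were also 0 at an unadjusted p under 0.05 in edgeR and in DESeq2. Without RBM17 knockdown library 1 the genes of the REST list lower in RBM17 knockdown were 2. Without CHERP knockdown library 1 or control library 3 the CREB list had 1 lower in CHERP knockdown.

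Among 7 tested transcription factors of neuroendocrine cells, 2 were higher and 1 lower in RBM17 knockdown, 0 higher and 2 lower in U2SURP knockdown, and 3 higher and 2 lower in CHERP knockdown. Over all tested genes 25.4% were higher and 29.3% lower in RBM17 knockdown, 21.1 and 22.2% in U2SURP knockdown, and 22.8 and 24.6% in CHERP knockdown, and these counts of 7 genes are given as a description. INSM1, a zinc-finger factor of endocrine differentiation, rose by 0.68 in RBM17 knockdown and by 0.60 in CHERP knockdown (adjusted p = 3.06e-06 and 1.91e-05). ISL1 rose by 0.43 in RBM17 knockdown (adjusted p = 0.000173), and PROX1 fell by 0.35 in RBM17 knockdown and rose by 0.33 in CHERP knockdown (adjusted p = 0.00103 and 0.00222). GATA2 fell by 0.35 and by 0.31 in U2SURP and CHERP knockdown (adjusted p = 3.68e-05 and 0.000101), and NKX2-2 fell by 0.35 and by 0.38 (adjusted p = 0.0197 and 0.00998). NKX2-2 in U2SURP knockdown lost its call without U2SURP knockdown library 3 or control library 2 (adjusted p = 0.0982 and 0.0526). Neither edgeR at an unadjusted p under 0.05 nor DESeq2 gave more than the 0 higher in U2SURP knockdown.

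Markers of neurons and neuroendocrine cells other than the 9 genes had a summed level over 10 markers of 328 to 332 CPM in RBM17 knockdown, 244 to 264 CPM in U2SURP knockdown, 211 to 232 CPM in CHERP knockdown and 282 to 304 CPM in control. Of 9 tested, 4 were higher and 3 lower in RBM17 knockdown, 1 higher and 4 lower in U2SURP knockdown, and 0 higher and 3 lower in CHERP knockdown. Of all tested genes, 25.4% were higher and 29.3% lower in RBM17 knockdown, 21.1 and 22.2% in U2SURP knockdown, and 22.8 and 24.6% in CHERP knockdown, and these counts of 9 genes are likewise a description. SYP (synaptophysin) averaged 53.4 ± 2.5 CPM in RBM17 knockdown (log2 1.31, adjusted p = 8.60e-13) and 8.15 ± 1.0 CPM in CHERP knockdown (log2 -1.40, adjusted p = 3.08e-13), against 21.5 ± 1.3 CPM in control. UCHL1 rose by 0.41 in RBM17 knockdown (adjusted p = 7.00e-07), and ELAVL4 by 1.49 in U2SURP knockdown (adjusted p = 0.0128), at 0.0976 ± 0.0086 CPM against 0.0343 ± 0.0089 CPM in control. NCAM1 fell by 0.23, 0.38 and 0.79 in RBM17, U2SURP and CHERP knockdown (adjusted p = 0.00134, 5.28e-06 and 6.05e-11), and ENO2 fell by 0.35 and by 0.52 in RBM17 and U2SURP knockdown (adjusted p = 9.99e-05 and 8.86e-07). No marker of this list was at 0 counts in any group, and 3 or 4 of 10 lay under 0.1 CPM; the 0 higher in CHERP knockdown was also 0 at an unadjusted p under 0.05 and in DESeq2. Their part in the values of the 9 genes was not tested.

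Markers of other cell types were summed likewise, and those of blood and endothelium had the lowest sums. Blood markers summed to 2.41 to 2.49 CPM in RBM17 knockdown, 2.53 to 3.41 CPM in U2SURP knockdown, 3.25 to 3.92 CPM in CHERP knockdown and 3.72 to 4.61 CPM in control, with 1 of 6 (HBB) at 0 counts in each group. Fibroblast markers summed to 13.4 to 14.7 CPM in RBM17 knockdown, 10.98 to 14.9 CPM in U2SURP knockdown, 10.4 to 13.3 CPM in CHERP knockdown and 17.9 to 22.4 CPM in control. Endothelial markers summed to 0.940 to 1.13 CPM in RBM17 knockdown, 0.143 to 0.219 CPM in U2SURP knockdown, 0.223 to 0.263 CPM in CHERP knockdown and 0.371 to 0.418 CPM in control. KDR led that list, at 0.983 ± 0.083 CPM in RBM17 knockdown, 0.134 ± 0.044 CPM in U2SURP knockdown, 0.169 ± 0.010 CPM in CHERP knockdown and 0.295 ± 0.062 CPM in control, while CDH5 and PECAM1 stayed under 0.1 CPM. The part of these markers in the values of the 9 genes was not tested either. Epithelial markers, led by KRT8 and KRT18, summed to 111 to 116 CPM in RBM17 knockdown, 105 to 114 CPM in U2SURP knockdown, 107 to 117 CPM in CHERP knockdown and 81.5 to 90.9 CPM in control. Of 4 tested, 1 was higher and 1 lower in RBM17 knockdown, 2 and 2 in U2SURP knockdown, and 2 and 1 in CHERP knockdown. The shares of all tested genes are those given for the neuronal markers, and the sums do not describe each marker. With DESeq2 size factors, in the DESeq2 Wald test or without control library 3, 2 were higher in RBM17 knockdown. Embryonic kidney genes summed to 204 to 213 CPM in RBM17 knockdown, 144 to 158 CPM in U2SURP knockdown, 174 to 192 CPM in CHERP knockdown and 165 to 174 CPM in control, with 5 of 10 higher and 1 lower in RBM17 knockdown, 1 higher and 4 lower in U2SURP knockdown, and 2 higher and 3 lower in CHERP knockdown, beside the shares of all tested genes given for the neuronal markers. Without RBM17 knockdown library 1, 2 of them were lower in RBM17 knockdown.

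The genes whose log2 CPM over the 12 libraries ran closest to that of CHGA, among 12849 protein-coding genes with a mean of at least 1 CPM, were PGBD5 (Pearson r = 0.990), SYT14 (0.990), RAB11FIP4 (0.987), PCBP3 (0.985) and NOVA2 (0.984). Of these SYT14, a synaptotagmin, averaged 8.22 CPM in RBM17 knockdown, 2.91 CPM in U2SURP knockdown, 1.81 CPM in CHERP knockdown and 2.50 CPM in control. In the order named, log2 fold changes in RBM17 knockdown were 1.37, 1.72, 0.83, 0.97 and 1.23, against 3.45 for CHGA. A correlation takes no account of the size of a change. CHGB, with a mean under 1 CPM, was not among the candidates. VGF was closest to STUM (0.978), KIAA1217 (0.977), MPHOSPH8 (0.975), NPC1 (0.975) and ITPR1 (0.975), and CPE to TMEM50A (0.983), SLC35E1 (0.977), REEP5 (0.971), UST (0.969) and SEMA3E (0.966). STUM averaged 21.8 CPM in RBM17 knockdown, 16.5 CPM in U2SURP knockdown, 8.37 CPM in CHERP knockdown and 25.4 CPM in control. The 12 libraries form 4 groups, so these coefficients mostly describe shared group means.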

How the data were processed

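Poly(A) RNA libraries were made with a stranded mRNA kit, per the labels' protocols, and each of the 12 deposited files holds the authors' unnormalized read counts by Ensembl gene. HISAT2 2.0.5, SAMtools, HTSeq and the build GRCh38 are listed, with no roles, per the submitters' processing notes; neither the gene annotation release nor how strand was handled in counting is stated (not given in the sources used here), so sense and antisense reads at a locus may be mixed. GENCODE 29 (GRCh38) named 56996 of 60554 gene IDs. Groups came from the labels. Library numbers within a group follow accession order and pair nothing, and no label states that the 3 libraries of a group are separate cultures; the p-values reflect spread among libraries, possibly technical.

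Counts were filtered with filterByExpr, given TMM scaling, and tested by the robust quasi-likelihood method of edgeR 4.0.16 under R 4.3.3, with 1 model for all 4 groups; a gene was called at a Benjamini-Hochberg adjusted p under 0.05 over 29003 tested genes. SE was taken as |log2 fold change| over the root of the F statistic, and ± after a CPM is the SD. CPM use TMM-scaled totals, and CPM per kb divide by the union of GENCODE exons, over which levels of different genes were compared. The fit was tested on simulated data with 200 changed genes. The outcome is not given here, so this test does not bear on the calls of the granule genes. Whether it covers the low levels of most of these genes was not shown. Replicate pairs differed by 10.8 to 46.6 in chi-square per gene, beyond counting noise, so each counted as its own library. Counting error is larger where counts are low: for SCG2 and PCSK1 in all groups (29 to 95 and 10 to 47 per library), for CHGB outside RBM17 knockdown (36 to 139), and in CHERP knockdown for VGF (44 to 70), SCG3 (58 to 94), CHGA (64 to 115) and PCSK2 (77 to 82).

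The 9 genes and the 12 other lists (154 genes) were chosen with earlier results of these data known. Named by rule were the 9 genes, the siRNA targets, up to 2 called genes per list, direction and knockdown by smallest p, and the 5 genes most correlated with CHGA, VGF and CPE over 12 libraries; exceptions are said in the text, and a few genes and 1 promoter so chosen are left out here. For the embryonic kidney, fibroblast, blood, epithelial and endothelial lists the text gives summed levels, and names KDR alone for its change. Promoter windows are those of RefSeq (GRCh38.p14). Alternatives were DESeq2 1.42.0 size factors, its Wald test, no filter, a fit of the 2 compared groups, and leaving out each library. Figures were drawn with matplotlib 3.10.9.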

Additional observations from a re-analysis of the deposited data

How the results depend on the processing

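Each of the 54 log2 fold changes of the 9 genes (6 comparisons) was recomputed under 16 alternatives. Of 37 calls, 32 held in all 16; the 5 others are given with the results they touch. Of the 864 alternative values, 16 lost a call, 7 gained one and 17 changed sign, and no count of called genes or of called members moved by more than 1.5 times. All sign changes fell on values that were not called. For CPE in RBM17 knockdown against control the value was 0.019 with DESeq2 size factors, 0.019 in the DESeq2 Wald test and 0.013 in the fit of those groups, and -0.084 to 0.041 when a library was left out. Leaving out a library gave -0.070 to 0.26 for CHGA and -0.39 to 0.19 for CHGB in U2SURP knockdown against control, and -0.26 to 0.40 for PCSK1 in CHERP knockdown against control. It gave -0.39 to 0.11 for SCG5 in RBM17 against U2SURP knockdown, -0.24 to 0.21 for SCG5 in U2SURP against CHERP knockdown, and -0.087 to 0.57 for PCSK1 in the same pair. CHERP in U2SURP knockdown was at 0.0013 with DESeq2 size factors and in the DESeq2 Wald test. The cause was not tested. Of 118 other named values, 105 kept their call under all alternatives, and of 72 counts over the other lists 57 stayed within 1.5 times. Over all tested genes, which of the higher and lower calls were more numerous against control depended on the scaling. In RBM17 knockdown 7368 were higher and 8490 lower in the main fit, and 8112 and 7566 with DESeq2 size factors. The order also changed with these size factors in U2SURP knockdown (6119 and 6430, then 6625 and 5898) and CHERP knockdown (6610 and 7121, then 7040 and 6661). No paired analysis was possible because the labels give no replicate numbers that groups share. Counting depth limits SCG2 and PCSK1, and in CHERP knockdown also CHGA, CHGB, SCG3, VGF and PCSK2.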
